A study of Mus musculus with 2 samples.

Results

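Contractile smooth muscle cells of the mouse aortic arch were taken as the cells that passed a gate on their UMI counts, a UMI being a tagged RNA molecule counted once. The members were chosen by measured values: at least 3 of the 6 genes Myh11, Acta2, Tagln, Cnn1, Myl9 and Tpm2 had a UMI, Myh11 or Cnn1 was among them, and the pericyte genes Abcc9 and Kcnj8 had none. Of 8155 cells kept in the series, 58 were members, with 38 of 5416 in the library of the normal diet (ND) and 20 of 2739 in the library of the high-fat diet (HFD). All mice were male Apoe−/− animals on a C57BL/6 background, 16 weeks old, which lack the apolipoprotein that clears remnant lipoproteins, so the ND group is not a wild-type control. Each diet was measured in 1 library made from 2 pooled aortas, so there is no replicate, no difference between diets was tested, and diet cannot be told apart from the library.

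Smooth muscle cells form the media of the aorta, where actin and smooth muscle myosin shorten the cell when calcium activates myosin light chain kinase. Serum response factor and its partner myocardin bind CArG boxes in the promoters of many contractile genes, and the cells also lay down elastin and collagen. In atherosclerosis, smooth muscle cells are known to lose contractile genes and to take up features of fibroblasts, macrophages or bone cells, so a gate on contractile genes can miss such cells.

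The 38 ND members held 222739 UMIs and the 20 HFD members 167479. A member had a median of 4718.5 UMIs in ND and 6262 in HFD, beside 3732.5 and 5336 over all kept cells. The median share of mitochondrial UMIs was 15.2% in ND members and 22.3% in HFD members. No member barcode occurred in both libraries. Levels are given as UMIs per 1000000 (CPM) over the summed cells, intervals are exact at 95%, and both cover counting error only.

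The gate took in 0.702% of the kept cells in ND (95% Clopper-Pearson interval 0.497 to 0.962) and 0.730% in HFD (0.447 to 1.13). After every kept cell was thinned to 1000 UMIs, which left out 63 ND cells and no member, 30 of 5353 ND cells (0.560%) and 14 of 2739 HFD cells (0.511%) passed. A further 35 ND and 20 HFD cells would have passed without the condition on Abcc9 and Kcnj8. Pericyte-gated cells, with a UMI of Notch3 and of Abcc9 or Kcnj8, numbered 85 in ND (1.57%) and 94 in HFD (3.43%).

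The genes of the gate are given as a description only, since they chose the cells. Acta2, smooth muscle actin (ENSMUSG00000035783, chr19:34241090-34255590, GRCm38), ranged in single ND members from 0 to 24024 CPM around a median of 6936, and in HFD members from 113 to 11809 around 3945. Tagln, the actin-binding transgelin (ENSMUSG00000032085, chr9:45929619-45936058), had a median of 5539 in ND and 4307 in HFD, with highest cells at 12899 and 7656. Myh11, the smooth muscle myosin heavy chain (ENSMUSG00000018830, chr16:14194535-14291372), had medians of 1607 and 832 and reached 8644 and 4145. The cells of both libraries overlapped for each of these 3 genes, and the highest cells were in ND. Cnn1, calponin, was sparse, with a UMI in 14 of 38 ND and 8 of 20 HFD members.

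**Figure D1:**
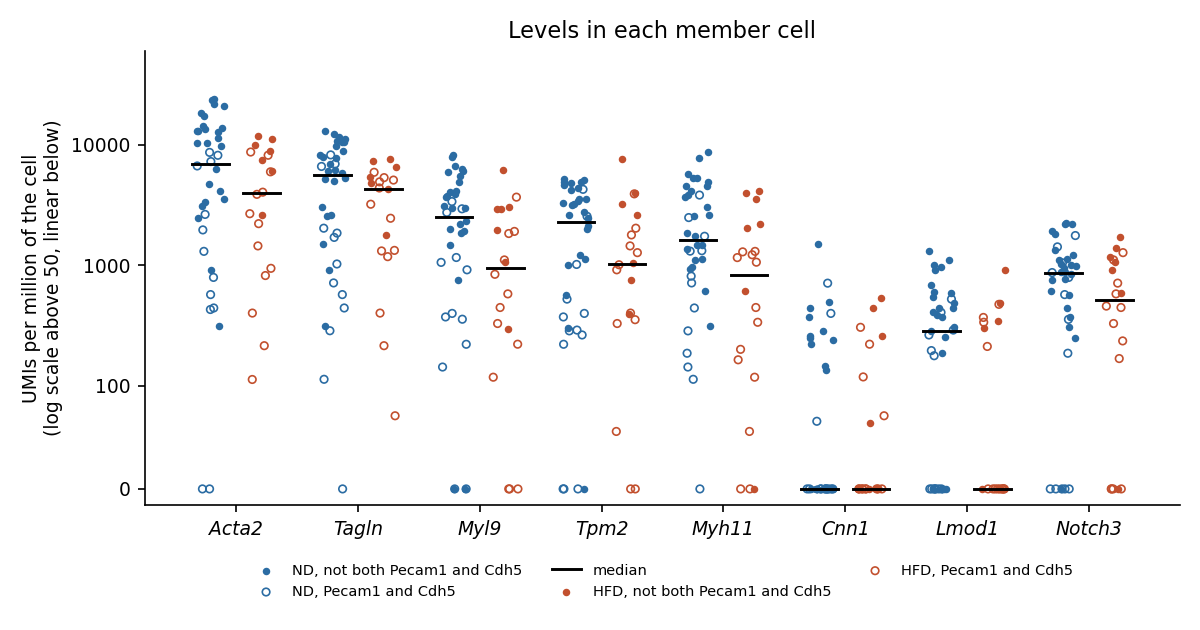
CPM of 8 genes in each of the 38 ND and 20 HFD members, 1 point per cell, on an axis that is logarithmic above 50 and linear below; bars are medians, and open points are cells in which Pecam1 and Cdh5 were both detected. Acta2, Tagln, Myl9, Tpm2, Myh11 and Cnn1 chose the cells, Lmod1 and Notch3 did not; both ND points of Acta2 at 0 are open.

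Lmod1, leiomodin, which nucleates actin filaments in smooth muscle and was not in the gate, served as a check of the label. It had a UMI in 25 of 38 ND members (65.8%, 48.6 to 80.4) and 8 of 20 HFD members (40%, 19.1 to 63.9). In cells with the B cell gene Cd79a, which should lack it, the ND share was 2 of 687 (0.291%), at a median depth of 3793 UMIs. Pericyte-gated cells, the nearest type, had a UMI of Lmod1 in 16 of 85 in ND (18.8%) and 9 of 94 in HFD (9.57%). Desmin (Des), the intermediate filament of muscle, had a UMI in 19 ND and 10 HFD members. In pericyte-gated cells it had one in 18 of 85 in ND and 19 of 94 in HFD. Members at the edge of the gate lacked Lmod1. Lmod1 was at 0 in every member with 3 or 4 gate genes, which were 7 ND and 4 HFD cells. With 5 and 6 gate genes, Lmod1 stood at 263 and 638 CPM in ND and at 135 and 313 CPM in HFD. Notch3, a receptor of mural cells, stood at 0 CPM with 3 gate genes, at 289 in ND and 0 in HFD with 4, and at 1119 and 539 CPM with 5, in ND and HFD. Just inside the threshold, the 4 ND cells with 3 gate genes had Acta2 at 460 CPM and the 1 HFD cell at 113 CPM. Just outside it, the 8 ND and 3 HFD cells with 2 gate genes, one of them Myh11 or Cnn1, had Acta2 at 20.6 and 0 CPM. Other cells were left out only for lack of Myh11 and Cnn1. With 3 gate genes, these 27 ND and 6 HFD cells had Acta2 at 908 and 186 CPM. With 4 gate genes, 4 ND and 4 HFD cells had Acta2 at 3009 and 3280 CPM and Lmod1 at 86.0 and 51.5 CPM, above the members with 4 gate genes. The 4 ND cells and 1 HFD cell with 3 gate genes had neither Lmod1 nor Notch3 and are called smooth muscle cells only by the gate. The 3 HFD members with 4 gate genes also had neither gene. The same held for an ND member with 4 gate genes, and for an ND and an HFD member with 5.

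Members also carried RNA of other cell types. Pecam1 and Cdh5, the endothelial junction genes, both had a UMI in 13 of 38 ND members (34.2%, 19.6 to 51.4) and 13 of 20 HFD members (65%, 40.8 to 84.6). Among all other kept cells the shares were 44.5% and 52.7%. The 23 contractile apparatus genes, a list without the gate genes, summed to a median of 27144 CPM per cell in the 25 ND members without that pair and 5944 in the 13 with it. In HFD the medians were 20306 in 7 members without the pair and 9228 in 13 with it. Ptprc, a leukocyte gene, had a UMI in 1 of 38 ND and 3 of 20 HFD members. The fibroblast gene Pdgfra had one in 1 ND and 4 HFD members. Members with neither the pair nor Ptprc or Pdgfra numbered 24 of 38 in ND (63.2%) and 3 of 20 in HFD (15%). Over the summed members, the 10 endothelial markers stood at 7161 CPM in ND and 13112 in HFD, with all 10 detected in both and most of the UMIs from Fabp4, a fatty acid binding protein (5468 and 9040 CPM). Fibroblast markers stood at 1459 and 3959 CPM, and macrophage markers at 453 and 502. T cell, B cell, mesothelial and Schwann cell markers stood at 13.5 CPM or less in either library. Of the 6 cardiomyocyte markers 3 were detected in each library, with 49.4 CPM in ND and 23.9 in HFD against 29.5 and 23.4 in the other kept cells, and Nppa and Myl7 were at 0. A UMI of Scgb1a1, a secretory protein of airway cells, occurred in 19 of 38 ND members and in none of 20 HFD members. The other kept cells outside both gates differed the same way. There the 3 airway markers stood at 15350 CPM in ND and 0.43 in HFD, against 135 and 0 in the members. Erythroid markers stood at 62.9 CPM in ND and 328 in HFD, against 3997 and 27475 in the other kept cells outside both gates.

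**Figure D2:**
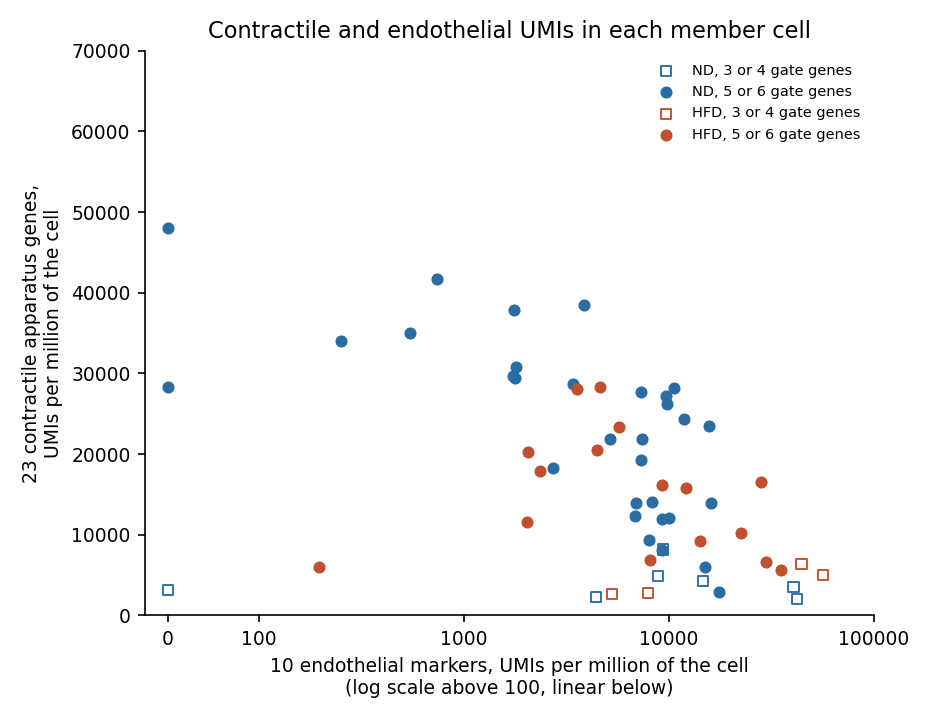
Summed CPM of 10 endothelial markers (x axis, logarithmic above 100 and linear below) and of 23 contractile apparatus genes (y axis, linear) in each member, 1 point per cell; open squares have 3 or 4 gate genes, filled circles 5 or 6. No open square lies above 8167 CPM of contractile genes, while the highest circle reaches 47994 CPM in ND and 28286 CPM in HFD.

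A few cells with many UMIs weighed on the sums. In each library 3 members held at least 50% of the UMIs of 4 or more of the genes compared below, and together they gave 14.3% of the ND and 36.7% of the HFD members' UMIs. One HFD cell had 20387 UMIs, 218 of the 220 Col1a1 UMIs and 53 of Acta2, with none of Lmod1 or Notch3. A second had 23306 UMIs, 129 of Cytl1, 161 of Mgp and 5 of Acta2. The other HFD cell had 17774 UMIs with Ptprc, the pan-leukocyte gene, 306 of Cd74, the invariant chain of antigen-presenting cells, and 2 of Acta2. One ND cell of 19748 UMIs had all 6 gate genes, 170 UMIs of Acta2 and 598 of the 669 Mgp UMIs. It also had 119 of the 144 UMIs of Nov, a secreted matricellular protein, and 66 of the 131 of Eln. A second ND cell of 8856 UMIs held all 125 UMIs of Cd74, and the other, of 3202 UMIs, held 50 of the 60 of Col1a1 with 1 of Acta2. These 6 cells were singled out after their values were seen, and values without them are given for the main results. Without them macrophage markers stood at 36.7 CPM in ND and 283 in HFD, and fibroblast markers at 681 and 3009. The last value still included 2 HFD cells at 23838 and 16110 CPM of fibroblast markers, the first of them with Ptprc. Over all members the median cell was at 572 CPM of these markers in ND and 678 in HFD.

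Against all other kept cells, the members stood out by contractile genes. Among 11218 genes compared, 134 (1.19%) were higher in the members of both libraries with the near end of the counting interval past 2-fold, and 47 (0.419%) were lower; this rule was set after the values were seen. Of the 23 contractile apparatus genes 22 could be compared and 15 were higher by this rule, with a median log2 ratio of 3.51 in ND and 2.61 in HFD, against 0.03 and 0.25 over all genes. None of them was lower. The gate favours cells with many contractile RNAs, so this is a description of the chosen cells.

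Lmod1 was at 395 CPM in ND members against 6.46 in other cells, and at 131 against 3.05 in HFD. Jph2, junctophilin, which holds calcium stores near the cell membrane, was at 148 against 2.30 CPM in ND and 102 in HFD, from 17 UMIs against 34 in all other cells. Rgs4, a brake on G protein signalling, was at 382 against 3.53 and 233 against 5.87 CPM. The 10 genes with the largest ratios in both libraries were these 3 and Gm13889, Pcp4l1, Rasl12, Fgf1, Notch3, Des and Daam2. The 10 lowest were Igkc, Ighm, Jchain and Igha, which encode antibody chains, the haemoglobin genes Hbb-bs, Hbb-bt, Hba-a1 and Hba-a2, and Pf4 and Retnla of platelets and macrophages.

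Genes of calcium handling and vessel tone were high as well, with 9 of 16 compared past this rule and none lower. They were Atp2a2 and Atp2b4, calcium pumps of the store and the membrane; Pln, the regulator of the first; Ednra, an endothelin receptor; Gucy1a1 and Gucy1b1, the nitric oxide receptor; Prkg1, the kinase below it; Pde3a; and Rgs4. Of 14 transcription factors compared, only 2, the Notch targets Heyl and Hey2, passed, and none was lower. Myocd, myocardin, was at 58.4 CPM in ND and 17.9 in HFD from 13 and 3 UMIs, against 7.46 and 6.91 in pericyte-gated cells.

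Pericytes share many of these genes, and 9 of 12 pericyte markers passed the same rule in the members. Compared with the pericyte-gated cells themselves, among 2555 genes 53 (2.07%) were at least 2-fold higher in the members of both libraries and 146 (5.71%) at least 2-fold lower. Of 16 contractile apparatus genes compared, 7 were higher (Mylk, Tpm1, Csrp1, Flna, Mustn1, Ppp1r12a and Ppp1r12b) and none lower. Mylk, myosin light chain kinase, was at 2492 CPM in ND members against 249 in pericyte-gated cells, and at 848 against 253 in HFD. Of the tone genes, Atp2b4, Pde3a and Rgs4 were higher in the members, and Agtr1a, the angiotensin receptor, and Ednrb were lower. Rgs5, the classical pericyte gene, was at 1073 against 2978 CPM in ND and 824 against 2564 in HFD, and Steap4, a metalloreductase, at 58.4 against 496 and 23.9 against 376. Rgs5 had a UMI in 15 of 38 ND and 10 of 20 HFD members and was unevenly spread. The median member was at 0 CPM in ND and 118 in HFD, and the highest at 13473 and 8260.

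The gene furthest above the pericyte-gated cells in both libraries was Crispld2, which encodes a secreted protein, at 952 against 86.6 CPM in ND (log2 ratio 3.46, 3.03 to 3.90) and 943 against 63.6 in HFD (3.89, 3.41 to 4.40). Sncg, gamma-synuclein, was among the 10, with 817 against 80.6 and 466 against 70.5 CPM. The others of the 10 were Gm13889, Mustn1, Marveld1, Rrad, H2-Eb1, Ntn4, Pdgfa and Emd. In H2-Eb1 1 cell gave 95.3% of the ND and 65.1% of the HFD UMIs. In Rrad 1 cell gave 58.8% of the HFD UMIs, which lay in 7 HFD members. Pdgfa, a ligand of the platelet-derived growth factor receptors, was at 593 against 115 CPM in ND and 257 against 60.8 in HFD. Among the 10 furthest below were the haemoglobin genes Hba-a1, Hba-a2 and Hbb-bs, and Nrp2, Steap4, Noct, Trim24, G0s2 and Pdzd2. Endothelial markers stood lower in the members than in pericyte-gated cells in both libraries, of which 65.9% in ND and 77.7% in HFD had Pecam1 and Cdh5 together, and the part of this RNA in the comparison was not tested.

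**Figure D3:**
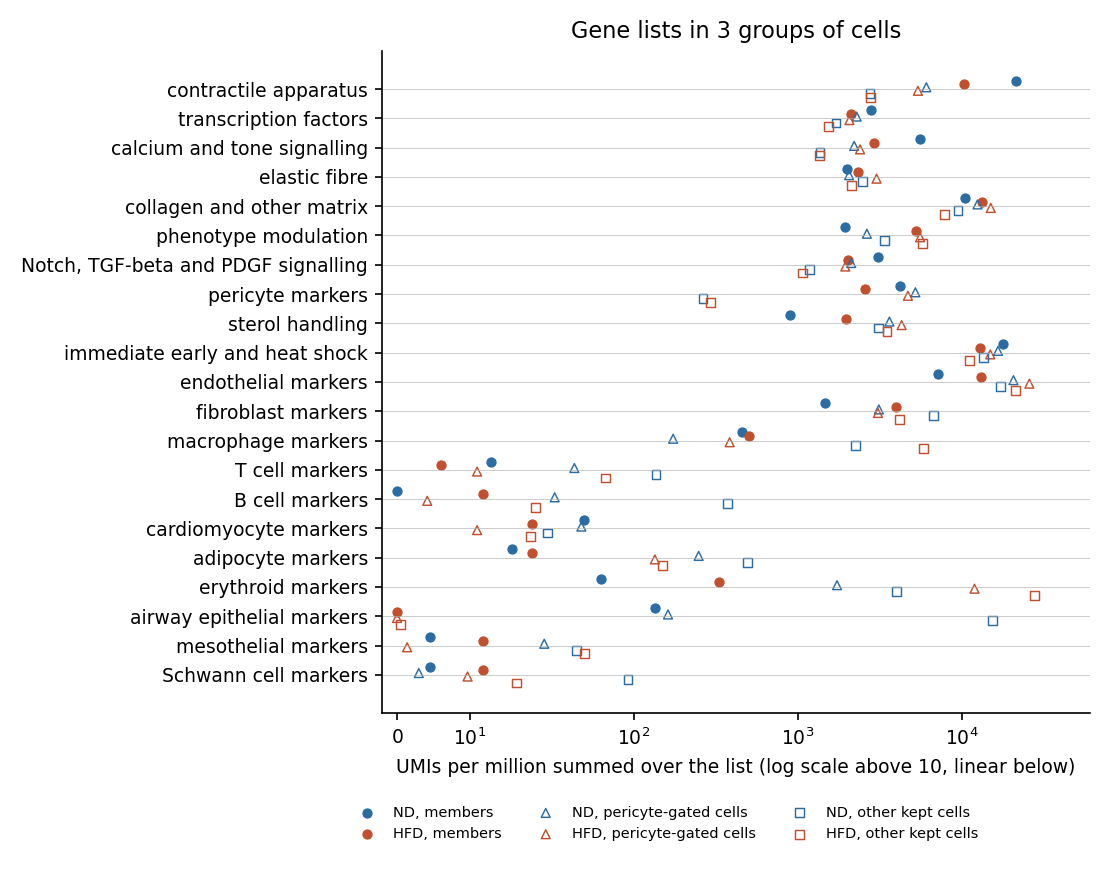
Summed CPM of 21 gene lists (rows, x axis logarithmic above 10 and linear below) in the members (filled circles), pericyte-gated cells (triangles) and other kept cells (squares), with ND in blue and HFD in red. The contractile apparatus stood at 21182 CPM in ND and 10270 in HFD members, 6054 and 5379 in pericyte-gated cells and 2748 and 2750 in the other cells.

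Between the diets, contractile genes were lower in the summed HFD members, by an amount that changed with depth and cell choice. Of 521 genes with at least 100 UMIs, 34 (6.53%) were at least 2-fold higher in HFD and 53 (10.2%) at least 2-fold lower, with a median log2 ratio of 0.01 over all. The summed contractile apparatus list was 21182 CPM in ND and 10270 in HFD. Of its 13 genes with enough UMIs, 7 were at least 2-fold lower, none was higher, and the median log2 ratio was -1.02. All 13 ratios were below 0, from -1.62 to -0.44. Members with neither the Pecam1 and Cdh5 pair nor Ptprc or Pdgfra were 24 of 38 in ND but 3 of 20 in HFD. The part of this difference in the ratios was not tested. The size depended on the cells and UMIs used. After every cell was thinned to 1000 UMIs before the gate, the median was -0.074, but it then covered only 3 genes in 30 ND and 14 HFD cells, and members, depth and genes had changed together. The median was -1.52 with at most 20% mitochondrial UMIs. Without the 6 cells the median was -0.54 and without cells with Pecam1 and Cdh5 it was -0.74, with 5 genes past 2-fold in either case.

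Mylk was at 2492 CPM in ND and 848 in HFD (log2 ratio -1.56, -1.83 to -1.29), and at 2786 and 1339 without the 6 cells (-1.06). Ppp1r12a, the targeting subunit of myosin phosphatase, was at 970 and 334 CPM (-1.54), and its relative Ppp1r12b at 418 and 137 (-1.60). Lmod1 was at 395 and 131 (-1.59) and Mustn1 at 1410 and 460 (-1.62). These 5 genes were past 2-fold with and without the 6 cells. Tpm1, a tropomyosin, and Flna, which cross-links actin, were past 2-fold over all members (-1.04 and -1.02) but not without the 6 cells (-0.74 and -0.54). The most abundant gene of the list, Myl6, the essential myosin light chain, was at 4202 and 2729 CPM (-0.62), and Ppp1r14a, an inhibitor of myosin phosphatase, at 453 and 334 (-0.44, -0.94 to 0.05).

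**Figure D4:**
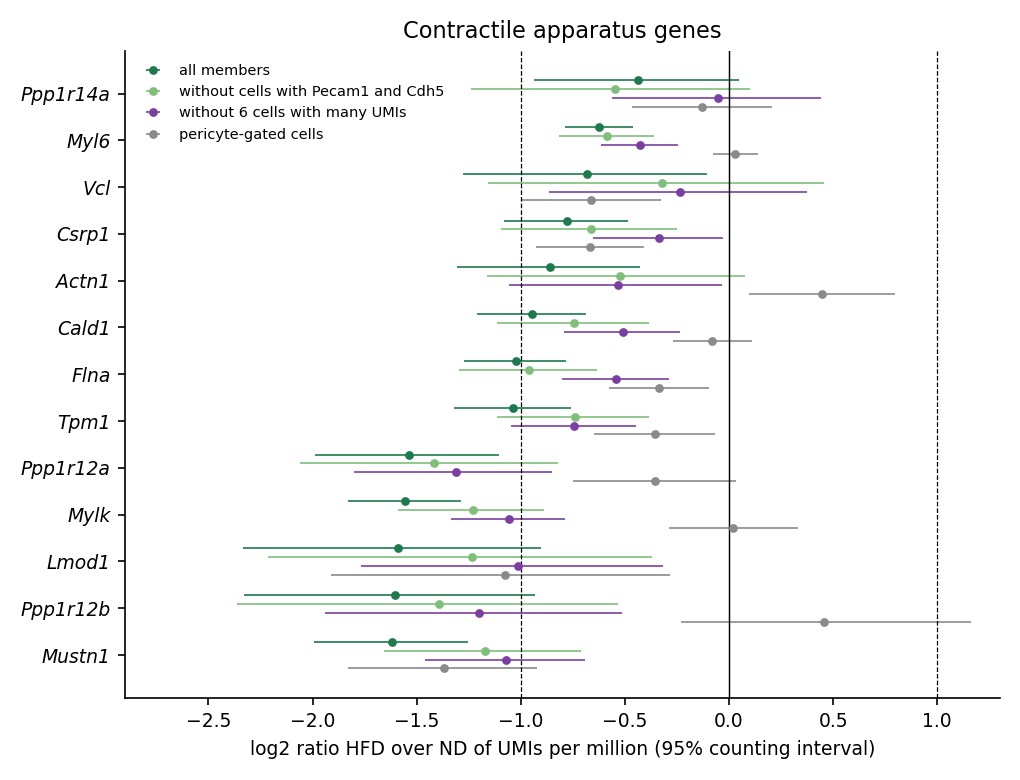
log2 ratio of HFD over ND for the 13 contractile apparatus genes compared, in all members, in members without Pecam1 and Cdh5, without the 6 cells with many UMIs and in pericyte-gated cells; bars are 95% counting intervals and dashed lines mark 2-fold. In the members all 13 points lie left of 0 in each setting, and in pericyte-gated cells 9 do, with a median of -0.34.

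The same genes in pericyte-gated cells gave a median log2 ratio of -0.34, with 2 of 13 past 2-fold, Lmod1 (-1.08) and Mustn1 (-1.37). The gate genes of the members had ratios of -1.70 for Myh11, -1.46 for Myl9, -1.18 for Acta2, -1.01 for Tagln, -0.94 for Tpm2 and -0.74 for Cnn1. Without the 6 cells these were -1.23, -0.95, -0.75, -0.54, -0.52 and -0.47, and in pericyte-gated cells they were -1.31, -0.60, -0.06, 0.60, -0.22 and -1.19. Endothelial UMIs and mitochondrial UMIs were both higher in the HFD members, and their part in these ratios was not tested.

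Some genes of this list have a CArG box in their promoter, and the boxes are shown because serum response factor acts through them. Only exact boxes were counted, which are CC, then only A or T, then GG, 10 bases in all. Boxes that differ from this at any base were not counted. Of the 23 genes, 20 have a promoter in the RefSeq table of GRCm38.p6. Within the 250 bases before the start on either strand, 3 of them (Ldb3, Myl6 and Vcl) hold an exact box. So do 1 of 4 gate genes with a promoter there (Myl9) and 1 of 10 transcription factors (Srf). Of the calcium and tone genes, 18 have a promoter there and 0 hold an exact box. Over all 32851 promoters the share is 1.47%, and counted by gene it is 439 of 27025 (1.62%). The 30 bases around the boxes are given 5′ to 3′ on the gene's strand, with the boxes in capitals.
Myl9, chr2:156775293-156775322, plus strand: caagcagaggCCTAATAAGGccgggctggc
Myl6, chr10:128493040-128493069, minus strand: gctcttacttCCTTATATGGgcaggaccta
Vcl, chr14:20929161-20929190, plus strand: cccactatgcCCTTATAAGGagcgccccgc
Ldb3, chr14:34588697-34588726, minus strand: gggttacagtCCATTTATGGgcgcagcaag
Srf, chr17:46556215-46556244, minus strand: CCATATAAGGagcggcctcgCCATAAAAGG
The boxes begin 161 bases before the start in Myl9, 50 in Myl6, 227 in Vcl, 109 in Ldb3, and 82 and 62 in Srf. Myl9 was at 2959 CPM in ND and 1075 in HFD, Myl6 as above, Vcl, which links actin to adhesions, at 364 and 227, Ldb3 at 175 and 59.7, and Srf itself at 175 and 47.8 from 39 and 8 UMIs. Of these 5 genes, Myl9 (-1.46), Vcl (-0.68) and Myl6 (-0.62) had the 100 UMIs needed for a ratio between diets, and Ldb3, with 39 and 10 UMIs, and Srf did not. A match in these letters says nothing about binding.

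Of 8 calcium and tone genes compared, 3 were at least 2-fold lower in HFD and none higher, with a median log2 ratio of -0.77. Gucy1a1 was at 485 CPM in ND, with UMIs in 24 of 38 cells, and at 95.5 in HFD, in 8 of 20 (-2.34, -3.20 to -1.58). Atp2a2 was at 889 and 376 CPM (-1.24) and Rock1, a kinase that restrains myosin phosphatase, at 418 and 149 (-1.48). All 3 stayed past 2-fold without the 6 cells (-1.80, -1.01 and -1.12), and in pericyte-gated cells their ratios were -0.37, 0.08 and -0.36. Below the limit of 100 UMIs, Pln was at 319 CPM from 71 UMIs in ND and 23.9 from 4 in HFD. Pde3a was at 440 and 430 CPM (-0.03, -0.49 to 0.42), and Rhoa, a switch of contraction, at 453 and 406 (-0.16, -0.62 to 0.30). Of 2 transcription factors compared, Mef2c was at 655 and 215 CPM (-1.61) and Klf4, a factor linked with loss of contractile genes, at 934 and 794 (-0.23, -0.56 to 0.09).

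None of the 3 elastic fibre genes compared was past 2-fold, and Eln, elastin, was at 588 CPM in ND and 591 in HFD (0.01, -0.38 to 0.39). Without the 6 cells it was at 220 and 132 CPM, and the largest single cells gave 50.4% of its ND and 38.4% of its HFD UMIs. Fbln5 was at 373 and 257 and Ltbp4 at 350 and 579 CPM. Of the 13 collagen and other matrix genes compared, Col1a1, Col1a2, Col3a1 and Dcn were at least 2-fold higher in HFD and Lamb2, a laminin chain, was lower (435 and 197 CPM, -1.14). Col1a1 was at 269 CPM in ND and 1314 in HFD, where 1 cell gave 99.1% of its UMIs, and at 15.7 and 18.9 without the 6 cells. Col1a2 was at 431 and 1493 CPM, with 92.0% of its HFD UMIs in 1 cell, and at 62.8 and 170 without the 6 cells (1.43). Col3a1 was at 296 and 752 CPM, and at 41.9 and 198 without them (2.24). Dcn, decorin, was at 265 and 770 CPM over all members and at 26.2 and 660 without them. A cell outside the 6 held 46 of the 129 HFD UMIs of Dcn. Mgp, matrix Gla protein, an inhibitor of calcification, was at 3004 and 2400 CPM over all members and at 199 and 170 without the 6 cells. Of the basement membrane genes, Col4a1 was at 646 and 776 and Col4a2 at 350 and 490 CPM.

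Among the 14 genes tied to a change of phenotype, 3 could be compared and 2, Ly6a and Fn1, were higher. Ly6a, which encodes the stem cell antigen Sca-1, was at 350 CPM in ND, in 16 of 38 cells, and at 1314 in HFD, in 17 of 20 cells (1.91, 1.53 to 2.30). It stood at 403 and 1075 without the 6 cells (1.41), and endothelial cells also express it. In pericyte-gated cells it was at 615 and 949 CPM. Fn1, fibronectin, was at 418 and 1499 CPM (1.84), with 48.4% and 58.2% of its UMIs in 1 cell, and at 199 and 519 without the 6 cells (1.38). Spp1, osteopontin, had no UMI in any member, which allows up to 3 UMIs in either library, while it was at 61.3 and 656 CPM in the other kept cells. Lgals3, galectin-3, was at 35.9 and 119 CPM from 8 and 20 UMIs. Of the 12 sterol genes only Cd36, a fatty acid receptor, could be compared, at 521 and 1415 CPM (1.44), and its ratio was -0.22 without cells with Pecam1 and Cdh5.

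Of 18 genes of Notch, TGF-beta and PDGF signalling 2 could be compared. Notch3 was at 853 and 430 CPM (-0.99), and Pdgfa at 593 and 257 (-1.21), which became -0.72 without the 6 cells. Of the 12 pericyte markers 4 were compared and none was past 2-fold, with Rgs5 at 1073 and 824 CPM. Immediate early and heat shock genes, which respond to cell dissociation, were compared for 16 of 17. Fosb (938 and 442 CPM), Atf3 (409 and 191) and Nr4a1 (1482 and 567) were at least 2-fold lower in HFD, none was higher, and the median was -0.30. Of the markers of other cell types, the endothelial genes Pecam1, Cdh5 and Egfl7 (3 of 5 compared) and the fibroblast genes Dcn and Col1a1 (2 of 3) were at least 2-fold higher.

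Of the 34 genes higher in HFD, 15 had at least 50% of their UMIs in 1 cell of either library, and of the 53 lower genes 2 did. Among genes with at least 4 UMIs in each library, the 10 largest log2 ratios ran from 2.86 to 1.91. These genes were Cytl1, H2-Aa, Ramp2, Heg1, H2-Ab1, H2-Eb1, Col1a1, Cd74, Pecam1 and Ly6a. The antigen presentation genes H2-Aa, H2-Ab1, H2-Eb1 and Cd74 had 60.3% to 72.2% of their HFD UMIs in 1 cell with Ptprc. Cytl1, a secreted protein, was at 130 and 943 CPM, from 2 cells in each library. Without the 6 cells it was at 5.24 in ND, from 1 UMI, and 0 in HFD, too few UMIs to give a direction. Without the 6 cells Ramp2 was at 136 and 217 CPM (0.67) and Pecam1 at 230 and 481 (1.06). H2-Aa was then at 10.5 and 123, H2-Ab1 at 10.5 and 377, H2-Eb1 at 10.5 and 151, and Cd74 at 0 and 415. Without the highest 6% of doublet scores, log2 ratios were 0.95 for H2-Aa, 0.28 for H2-Ab1, 0.71 for H2-Eb1 and 0.11 for Cd74. Heg1, a receptor of endothelial junctions, was at 103 CPM in 11 ND cells and 555 in 16 HFD cells (2.43, 1.76 to 3.15), and its ratio was -0.49 after thinning to 1000 UMIs a cell.

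The 10 genes with the lowest ratios, among those with at least 4 UMIs in each library, had UMIs in 22 to 32 of the 38 ND cells. Rcan2, a regulator of the calcium-dependent phosphatase calcineurin, was at 422 CPM in 25 ND cells and 35.8 in 3 HFD cells (-3.56, -5.04 to -2.38). Palld, palladin, which bundles actin, was at 1069 CPM in 32 ND cells and 239 in 17 HFD cells (-2.16). Map3k20, a stress kinase, was at 808 and 179 CPM (-2.17), and Sorbs2, an adaptor of adhesions, at 929 and 239 (-1.96). Igfbp5, an insulin-like growth factor binding protein, was at 2016 and 478 CPM (-2.08), and Serpine2, a protease inhibitor, at 611 and 113 (-2.43). The others were Gucy1a1, Pbxip1 (-2.17), Rasl11a (-2.09) and Id2 (-1.81). Each of the 10 was also lower by more than 2-fold without the 6 cells, from -2.94 for Rcan2 to -1.25 for Serpine2. After thinning to 1000 UMIs a cell, 5 of the 10 were no longer past 2-fold, namely Rcan2 (-0.90), Id2 (-0.77), Gucy1a1 (-0.71), Pbxip1 (-0.71) and Serpine2 (-0.49). In pericyte-gated cells Rcan2 was at 28.4 and 5.53 CPM and Palld at 118 and 73.3.

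Some genes had 3 or fewer UMIs in 1 library. Npy1r, a receptor of the sympathetic transmitter neuropeptide Y, had 50 UMIs in 19 ND cells and 1 UMI in HFD, and Dgkb, a diacylglycerol kinase, 41 UMIs in 19 ND cells and 1 in HFD. Nov had 144 and 2 UMIs, Filip1 33 and 3 and Ncbp3 27 and 3. In the other direction, Timp1 (3 in ND and 64 in HFD), Ccl4 (0 and 56), Lum (0 and 43) and Slco2a1 (3 and 41) had at least 75.6% of their HFD UMIs in 1 cell. Gda, guanine deaminase, had 2 UMIs in ND and 24 UMIs over 12 HFD cells. Myh9, a non-muscle myosin heavy chain, was at 337 CPM in ND and 376 in HFD (0.16, -0.35 to 0.66).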

How the data were processed

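Aortic arch cells were profiled by droplet single-cell RNA sequencing in 1 library per diet. The authors deposited UMI counts per gene and cell from Cell Ranger 3.0.1, per the file headers, and the submitters' processing notes name the build mm10, Seurat 3.2.0 and R 4.0.0. Kept cells had 200 or more genes, 200 or more UMIs and no more than 30% of UMIs from mitochondrial genes. Counts were summed over the gated cells of a library and divided by their total. Ratios carry exact conditional binomial intervals, levels exact Poisson intervals and shares Clopper-Pearson intervals. Of these, only the ratio intervals were checked on simulated data. There is no replicate and no test. Genes needed at least 100 UMIs over both libraries for the diets, and 50 UMIs in each library for other cells. To be named among the 10 largest ratios each way between the diets, a gene also needed at least 4 UMIs in each library. Called means past 2-fold. For 35 duplicated symbols the first row was used. Named were list members with the most UMIs or past 2-fold, the 10 largest ratios each way, 5 genes with 3 or fewer UMIs in 1 library each way, and genes named for these cells. Members and lists were chosen with earlier results of these data known. Scrublet (scanpy 1.11.5, 6% doublets expected) called 83 ND cells (1.53%) and 1 HFD cell (0.0365%) by its own threshold. Both shares were under the expected 6%, and why so few were called in HFD was not tested. None was removed, and leaving out the highest 6% of scores was an alternative. Positions are from GENCODE on GRCm38 and promoters from RefSeq on GRCm38.p6. Joined tables were not used. Python 3.11.15, numpy 2.4.6, scipy 1.17.1, pandas 2.3.3 and matplotlib 3.10.9 were used. A gate of 5 genes, leaving out the cell with most UMIs of a gene, leaving out the 6 cells and the rule against other kept cells were chosen after seeing the data.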

Additional observations from a re-analysis of the deposited data

How the results depend on the processing

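With 1 library per diet no replicate could be left out, and depth limits genes with few UMIs. No paired analysis was possible because each diet has 1 library. The counts below are genes past 2-fold higher and lower in HFD (34 and 53 in the report), and the median is that of the contractile apparatus genes (-1.02), which was below 0 in each setting that gives one below; the minimums of 200 and 50 UMIs give none. A limit of 20% mitochondrial UMIs gave 52 higher, a median of -1.52 and 27 genes above pericyte-gated cells. At least 5 gate genes gave 20 higher and -0.80. Myh11 or Cnn1 with at least 2 UMIs gave 11 and 27, -0.53, and Col1a1 at -1.15. No condition on Abcc9 and Kcnj8 gave shares of 1.35% in ND and 1.46% in HFD, 101 and 133 genes, and -0.77. Without the highest 6% of doublet scores there were 19 higher, a median of -0.67, and Col1a1 at -5.08. Without cells with Pecam1 and Cdh5 the shares were 0.462% and 0.256%, with 29 lower, -0.74, and 354 genes below pericyte-gated cells. Without cells with Ptprc or Pdgfra there were 13 higher and -0.62. Thinning to 1000 UMIs left 0 higher and 3 lower of only 37 genes compared, -0.074 over 3 genes, and 4 above and 2 below pericyte-gated cells of 49 compared, with Heg1 at -0.49, Cd74 at -2.07 and Pecam1 at -0.22. A total without mitochondrial, haemoglobin and ribosomal genes gave -0.94. The mean CPM of single cells gave 21 and 32 and -0.50. A minimum of 200 UMIs gave 18 and 24, and of 50 UMIs 89 and 133. Without the cell with most UMIs of each gene the median was -1.11 and Col1a1 was at -1.74. Without the 6 cells there were 12 and 30, and -0.54. The cause was not tested, apart from the smaller numbers of cells, UMIs or genes that these settings leave.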
